A study of Mus musculus with 2 samples.

Results

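The Bcl2 family decides whether a cell keeps its mitochondria intact or opens them and dies, and 10 of its genes were followed here in mouse E14 embryonic stem (ES) cells (129P2/OlaHsd strain) after and before differentiation. They were chosen by name (BCL2, BCL2L1, MCL1, BAX, BAK1, BCL2L11, BBC3, PMAIP1, BID and BAD in the upper-case symbols of the tables) from 34376 gene rows, 55830 promoter rows and 83402 transcript rows, in which they hold 10, 21 and 42 rows. The differentiated group is 1 library of a mixed cell population, plated without feeder cells in 10% serum and treated with all-trans retinoic acid at 0.1 µM for 4.5 days. The undifferentiated group is 1 library of cells kept on mitomycin-treated embryonic fibroblasts in 15% serum with leukaemia inhibitory factor. Both cultures were at passage 29. By Trypan Blue staining the submitters put dead cells at about 8% of the differentiated and 2% of the undifferentiated harvest. The question was how the RNA levels of death-promoting and death-blocking members stood after and before differentiation.

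In the mitochondrial pathway of apoptosis, the effector proteins Bax and Bak1 form pores in the outer mitochondrial membrane and release cytochrome c. The anti-death proteins Bcl2, Bcl-xL (the main product of Bcl2l1) and Mcl1 hold the effectors in check. The BH3-only proteins Bim (Bcl2l11), Puma (Bbc3), Noxa (Pmaip1), Bid and Bad sense stress and either neutralise the anti-death proteins or activate the effectors directly. ES cells are known for being primed for mitochondrial apoptosis. Much of the control of these proteins lies in cleavage, phosphorylation and turnover, which RNA levels do not show.

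Values are RPKM, read counts scaled to the length of the gene model and to the depth of the lane, so levels of different genes can be compared. Each library was read on 2 lanes, and ± gives the SD between lanes. That SD holds the error of sequencing and of assigning reads to genes, and none between cultures. With 1 library per group the cultures have no replicate check, and no test between conditions is possible. Depth, as inferred from the values, was about 33100000 and 32000000 reads in the differentiated lanes, against 37800000 and 36200000 in the undifferentiated lanes. The 4 ES cell markers (Pou5f1, Nanog, Zfp42 and Esrrb) summed to 46.8 and 43.3 RPKM in the differentiated lanes, against 1272 and 1285 RPKM in the undifferentiated lanes. The 4 extraembryonic endoderm markers (Gata4, Gata6, Sox17 and Col4a1) summed to 1951 and 2006 RPKM in the differentiated lanes, against 15.4 and 14.9 RPKM in the undifferentiated lanes. The 8 fibroblast markers summed to 228 and 227 RPKM in the differentiated lanes, against 32.6 and 29.6 RPKM in the undifferentiated lanes, and none of the 8 had a mean of 0 in either library. Of these markers 4 were past 2-fold on the higher side (Col1a1, Col1a2, Col3a1 and Dcn), 3 lay within 2-fold (Thy1, Pdgfrb and Postn) and Lum was below 1 RPKM. The collagens carried the sum, while Thy1 averaged 2.13 RPKM in the differentiated and 3.43 RPKM in the undifferentiated library. These marker differences accompany every result below, and their part in it was not tested. In such bulk RNA, fewer cells of a type and less RNA per cell cannot be told apart.

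Log2 ratios are log2 of (differentiated RPKM + 1) over (undifferentiated RPKM + 1), and a gene counts as higher or lower past 2-fold on that scale. All 10 members reached 1 RPKM in at least 1 library, Bcl2 only through its differentiated level. Of them 4 were higher (Bcl2l1, Bad, Bcl2 and Bcl2l11), 1 was lower (Bid) and 5 lay between. Of all 17899 genes at 1 RPKM or more in either library, 19.1% were higher and 8.48% were lower by the same rule. Higher genes made up 69.3% of the genes past 2-fold as deposited, 58.1% after trimmed-mean scaling and 80.6% with equal RPKM sums. The median log2 ratio was 0.68 over the members and 0.12 over all genes at the floor. The lanes of the libraries did not overlap for any of the 10 members, as for 84.4% of all genes at the floor. The differentiated lanes lay above the undifferentiated ones for 7 members (47.4% of genes at the floor) and below them for 3 (37.1%). The members thus differ in size and direction one by one, and their count past 2-fold is given as a description only.

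**Figure D1:**
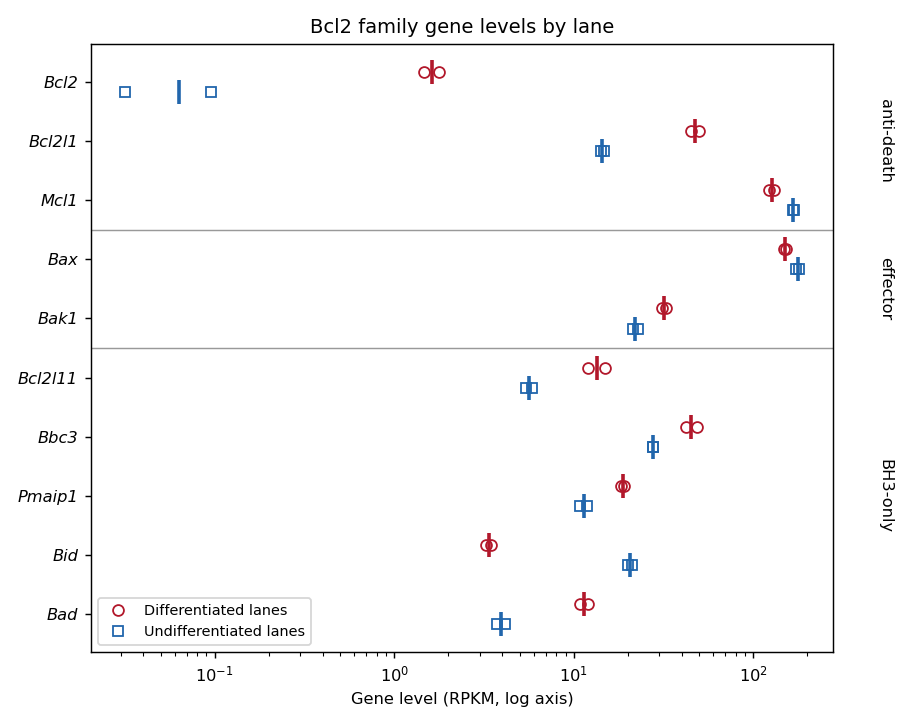
Gene levels of the 10 members in RPKM on a log axis, with differentiated lanes (circles, upper) and undifferentiated lanes (squares, lower) in each row and a bar at the mean of the lanes. Bid lies far to the left in the differentiated library (3.35 against 20.6 RPKM), while Bcl2, Bcl2l1, Bcl2l11 and Bad lie to the right.

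Because the deposited tables resolve RNA by promoter, promoters are shown of Bid, the lower member, and of the anti-death genes Bcl2l1 and Bcl2, both among the higher ones. Each window runs from 250 bases before to 50 bases after the RefSeq start (GRCm38.p6, minus strand, written 5′ to 3′). Capitals mark matches to GGGCGG (the GC box), TATAAA (the TATA box), AGGTCA (a nuclear receptor half-site) or CACGTG (an E-box) on either strand, with overlapping matches allowed. The windows are chr6:120916775-120917074 for Bid, chr2:152831679-152831978 for the upstream start of Bcl2l1 and chr1:106714241-106714540 for Bcl2.
Bid: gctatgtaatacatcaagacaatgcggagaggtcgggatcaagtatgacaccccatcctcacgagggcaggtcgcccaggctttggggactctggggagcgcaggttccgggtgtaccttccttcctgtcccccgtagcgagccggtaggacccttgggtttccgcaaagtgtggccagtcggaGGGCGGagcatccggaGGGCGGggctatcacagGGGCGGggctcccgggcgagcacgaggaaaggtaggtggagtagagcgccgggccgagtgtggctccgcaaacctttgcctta
Bcl2l1: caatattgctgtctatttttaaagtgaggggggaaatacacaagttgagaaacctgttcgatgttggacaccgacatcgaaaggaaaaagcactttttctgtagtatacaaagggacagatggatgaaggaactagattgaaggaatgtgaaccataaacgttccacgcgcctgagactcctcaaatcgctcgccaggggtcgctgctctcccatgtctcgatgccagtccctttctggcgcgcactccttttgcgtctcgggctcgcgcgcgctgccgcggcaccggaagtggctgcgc
Bcl2: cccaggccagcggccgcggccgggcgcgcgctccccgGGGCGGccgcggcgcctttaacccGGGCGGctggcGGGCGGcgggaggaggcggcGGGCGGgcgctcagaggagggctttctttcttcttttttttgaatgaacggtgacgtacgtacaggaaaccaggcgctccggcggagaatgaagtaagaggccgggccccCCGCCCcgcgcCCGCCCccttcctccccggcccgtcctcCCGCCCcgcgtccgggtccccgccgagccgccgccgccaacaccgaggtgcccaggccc
The Bid window holds 3 matches to GGGCGG, the Bcl2 window holds 7, and the Bcl2l1 window holds none of the 4 motifs. The Bcl2 window is 76.0% G and C, the Bid window 63.3% and the Bcl2l1 window 52.3%, beside a median of 52.7% over 32817 RefSeq windows. RefSeq windows were matched for 9 members, 15 windows in all, and 10 of the 15 hold GGGCGG, which 35.6% of all windows hold. By member, 7 of the 9 have a window with GGGCGG. The windows are not all separate, since neighbouring Bbc3 windows overlap and share matches. TATAAA was in 0 of the 15 windows (13.6% of all windows), AGGTCA in 1 (16.3%), a downstream Bcl2l1 window, and CACGTG in 2 (7.15%), one each of Bax and Bbc3. A match describes letters in the window and is no evidence of binding.

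Among anti-death genes, Mcl1 was the main RNA in both libraries, and Bcl2l1 and Bcl2 were higher after differentiation. Mcl1, which encodes a short-lived protein that ES cells express strongly (mm9 chromosome 3, 95462643 to 95467101), stood at 130 and 123 RPKM in the differentiated lanes, against 168 and 167 RPKM in the undifferentiated lanes. Its differentiated lanes were both below the undifferentiated ones, with a log2 ratio of -0.40 that stayed below 0 under the scalings (-0.57 to -0.16).

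Bcl2l1 (chromosome 2, 152593052 to 152657464) stood at 49.6 and 45.0 RPKM in the differentiated lanes, against 14.7 and 14.1 RPKM in the undifferentiated lanes. Both differentiated lanes were more than 3 times as high as either undifferentiated lane, with a 3.29-fold ratio of the means and a log2 ratio of 1.65 (1.69 and 1.61 in the separate lanes). With the pseudocount of 1 this was the highest log2 ratio of the 10 members (with 0.1 that of Bcl2 was higher), and 8.43% of all genes at the floor had a higher one.

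Bcl2, the founding member of the family (chromosome 1, 108434755 to 108610867), stood at 1.46 and 1.78 RPKM in the differentiated lanes, against 0.0315 and 0.0954 RPKM in the undifferentiated lanes. It was the weakest member in both libraries and close to silent in the undifferentiated one. For its long transcript of 7191 bases the values correspond to about 211 and 248 reads in the differentiated lanes, against about 9 in each undifferentiated lane. The log2 ratio was 1.30 with a pseudocount of 1 and 3.39 with a pseudocount of 0.1, so its size depends on the pseudocount. The 2 deposited Bcl2 transcripts, the long form and a form that ends within the first part of the gene (2518 bases), took 60.7% and 39.3% of the differentiated level, against 51.1% and 48.9% of the undifferentiated level. The undifferentiated shares rest on few reads.

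The effectors lay within 2-fold. Bax (chromosome 7, 52717065 to 52722268) was the most abundant of the 10 RNAs in both libraries, at 148 and 153 RPKM in the differentiated lanes, against 181 and 173 RPKM in the undifferentiated lanes. Its log2 ratio was -0.23 and turned to 0.01 with equal RPKM sums, so no direction is given for it. Bak1 (chromosome 17, 27156755 to 27165954) stood at 31.1 and 32.5 RPKM in the differentiated lanes, against 21.3 and 22.8 RPKM in the undifferentiated lanes. Its differentiated lanes were both above the undifferentiated ones (log2 ratio 0.51, 0.35 to 0.75 over the scalings). RNA of Bax exceeded that of Bak1 by 4.73-fold in the differentiated and 8.03-fold in the undifferentiated library. The Bak1 level is a sum over all its forms. Bak1-201, annotated in GENCODE M21 as a target of nonsense-mediated decay, took 30.9% of it in the differentiated and 40.2% in the undifferentiated library. Bak1-202, annotated there as protein-coding, took 1.85% in the differentiated and 2.40% in the undifferentiated library. The remaining Bak1 forms had no GENCODE match. All 4 Bak1 transcripts overlap the gene Ggnbp1 on the opposite strand, which stood at 1.78 RPKM in the differentiated and 1.79 RPKM in the undifferentiated library, and the kit does not record strand, so part of the reads of either gene may belong to the other.

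The BH3-only genes differed in both directions: Bid was lower, Bcl2l11 and Bad were higher, and Bbc3 and Pmaip1 lay within 2-fold. Bid encodes the protein that caspase-8 cuts to carry a death receptor signal to mitochondria (chromosome 6, 120841948 to 120866871). It stood at 3.47 and 3.23 RPKM in the differentiated lanes, against 20.0 and 21.1 RPKM in the undifferentiated lanes. Every differentiated lane was far below every undifferentiated lane, and the undifferentiated mean was 6.13-fold that of the differentiated library. The log2 ratio was -2.31, with -2.23 and -2.39 in the separate lanes and -2.58 to -2.11 over the scalings, pseudocounts and floors, but it was -1.04 without the one transcript that overlaps a neighbouring gene. Of all genes at the floor, 1.35% had a lower ratio. Bid was the least abundant of the pro-death RNAs in the differentiated library, while in the undifferentiated library it stood just below Bak1 (22.0 RPKM).

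Bcl2l11, whose protein Bim binds all anti-death members (chromosome 2, 127951774 to 127988283), stood at 12.0 and 14.9 RPKM in the differentiated lanes, against 5.83 and 5.39 RPKM in the undifferentiated lanes. Bad, whose protein binds Bcl2 and Bcl-xL unless survival kinases phosphorylate it (chromosome 19, 7016345 to 7026388), stood at 10.8 and 12.0 RPKM in the differentiated lanes, against 3.72 and 4.16 RPKM in the undifferentiated lanes. Both genes had every differentiated lane above every undifferentiated lane. The Bad log2 ratio of 1.32 was past 2-fold under every setting tried (1.17 to 1.55). The Bcl2l11 log2 ratio of 1.13 was not: it was 0.92 in lane 1 and 0.97 after trimmed-mean scaling.

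Bbc3 and Pmaip1, both known targets of the tumour suppressor p53, lay within 2-fold on the higher side. Bbc3 (chromosome 7, 16894932 to 16903683) stood at 42.2 and 48.4 RPKM in the differentiated lanes, against 27.7 and 27.5 RPKM in the undifferentiated lanes. Pmaip1 (chromosome 18, 66618258 to 66625212), whose protein Noxa acts chiefly on Mcl1, stood at 19.0 and 18.4 RPKM in the differentiated lanes, against 11.9 and 10.8 RPKM in the undifferentiated lanes. The differentiated lanes were above the undifferentiated ones for both, by log2 ratios of 0.70 and 0.67 that stayed positive and under 2-fold in every setting tried (0.53 to 0.94 for Bbc3 and 0.51 to 0.91 for Pmaip1).

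The order of the levels in the differentiated library ran from Bax (150 RPKM) through Mcl1 (126), Bcl2l1 (47.3), Bbc3 (45.3), Bak1 (31.8), Pmaip1 (18.7), Bcl2l11 (13.4), Bad (11.4) and Bid (3.35) to Bcl2 (1.62). There the lanes of Bcl2l1 and Bbc3 overlapped, as did those of Bcl2l11 and Bad, so these neighbours do not differ beyond their lane spread. In the undifferentiated library it ran from Bax (177 RPKM) through Mcl1 (167), Bbc3 (27.6), Bak1 (22.0), Bid (20.6), Bcl2l1 (14.4), Pmaip1 (11.3), Bcl2l11 (5.61) and Bad (3.94) to Bcl2 (0.0634), with no overlap of lanes between neighbours. Bcl2l1 and Bid were the members whose places differed most between the orders. For Bid this rests on the transcript that overlaps a neighbouring gene. Without that transcript Bid averaged 4.36 RPKM in the undifferentiated library, between Bcl2l11 and Bad, and 1.61 RPKM in the differentiated library.

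Summed by role, the anti-death and effector RNAs were close in both libraries while the BH3-only sum was larger after differentiation. The 3 anti-death genes summed to 175 ± 7.93 RPKM in the differentiated library, against 182 ± 1.48 RPKM in the undifferentiated library, with a log2 ratio of -0.05 as deposited and between -0.22 and 0.19 when rescaled. The 2 effectors summed to 182 ± 4.39 RPKM in the differentiated library, against 199 ± 4.53 RPKM in the undifferentiated library, with a log2 ratio of -0.13 as deposited and between -0.29 and 0.12 when rescaled. Neither sum therefore has a direction.

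The 5 BH3-only genes summed to 92.1 ± 6.76 RPKM in the differentiated library, against 69.0 ± 0.0777 RPKM in the undifferentiated library (log2 ratio 0.41, 0.24 to 0.66 over the scalings). Per gene, the 7 pro-death members averaged 39.2 RPKM in the differentiated and 38.3 RPKM in the undifferentiated library, and the 3 anti-death members averaged 58.5 RPKM in the differentiated and 60.6 RPKM in the undifferentiated library. Because Bax and Mcl1 carry most of these averages, the medians differ from them. The median pro-death member stood at 18.7 RPKM in the differentiated library (Pmaip1) and 20.6 RPKM in the undifferentiated library (Bid). That order rests on the Bid transcript that overlaps a neighbouring gene. With Bid at 4.36 RPKM, its undifferentiated level without that transcript, the undifferentiated median would be Pmaip1 at 11.3 RPKM. The differentiated median would stay at 18.7 RPKM, so the direction would turn. The median anti-death member stood at 47.3 RPKM in the differentiated and 14.4 RPKM in the undifferentiated library. The ratio of the anti-death to the pro-death sum was 0.639 in the differentiated library (0.679 and 0.601 in its lanes), against 0.679 in the undifferentiated library (0.674 and 0.683). One differentiated lane lay between the undifferentiated lanes and the other below them, so that ratio did not differ beyond the lane spread. The anti-death to effector ratio, 0.962 in the differentiated and 0.914 in the undifferentiated library, also had overlapping lanes. The anti-death to BH3-only ratio was 1.90 in the differentiated library (2.07 and 1.75), against 2.63 in the undifferentiated library (2.65 and 2.62). The lanes of that last ratio did not overlap.

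The makeup of the anti-death and BH3-only sums differed between the libraries. Bcl2l1 supplied 27.0% of the anti-death sum in the differentiated library, against 7.91% in the undifferentiated library, and Mcl1 supplied 72.1% in the differentiated library, against 92.1% in the undifferentiated library. Without Mcl1 the anti-death sum was 48.9 ± 3.06 RPKM in the differentiated library, against 14.4 ± 0.354 RPKM in the undifferentiated library. Bid supplied 3.64% of the BH3-only sum in the differentiated library, against 29.8% in the undifferentiated library. Of the Bid level, 52.1% in the differentiated and 78.8% in the undifferentiated library came from the transcript that overlaps a neighbouring gene. The Bid shares of the sum are smaller without that transcript. Without Bid the BH3-only sum was 88.8 ± 6.93 RPKM in the differentiated library, against 48.5 ± 0.881 RPKM in the undifferentiated library, a 1.83-fold ratio. RNA of Bax exceeded that of Bcl2l1 by 3.18-fold in the differentiated and 12.3-fold in the undifferentiated library. These ratios within a library do not depend on the scaling between libraries. They are of RNA, and say nothing of the amounts or binding of the proteins.

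**Figure D2:**
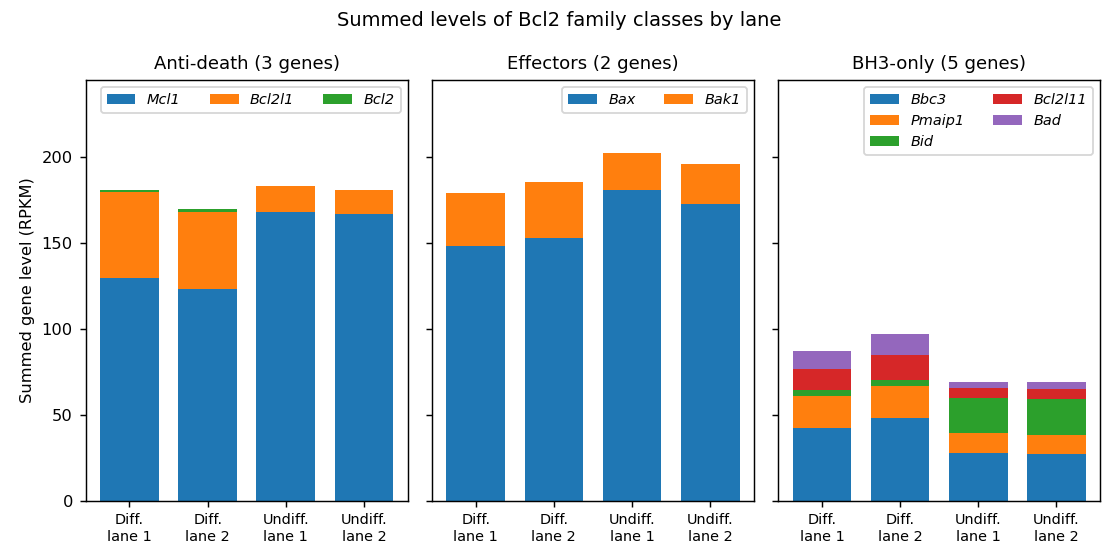
Summed RPKM of the anti-death, effector and BH3-only members in the differentiated lanes (left pair) and the undifferentiated lanes (right pair) of each panel, stacked by gene. The anti-death and effector bars are of like height throughout, while the Bcl2l1 portion is larger and the Bid portion smaller in the differentiated lanes. The Bid portion includes the transcript that overlaps a neighbouring gene.

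The promoter rows divide the gene values by start region. Each row groups 1 or more transcripts and is placed here at the most upstream of their starts. Of the 21 rows of the members 20 reached 1 RPKM in either library, of which 7 were higher and 1 was lower, beside 20.2% and 9.32% of 25933 promoters at that floor. The 7 higher rows were the single Bcl2 promoter, all 4 of Bcl2l1 and 2 of the 4 of Bad, and the lower row was the main promoter of Bid. Bcl2l11, higher as a gene, had none of its 3 promoter rows past 2-fold with the pseudocount of 1 (log2 ratios 0.99, 0.83 and 0.83). Without a pseudocount the ratios of the means were 2.22, 2.67 and 3.91, beside 2.40 for the gene. These calls thus depend on the pseudocount and show no difference between gene and promoters. Bcl2l1 has 4 promoter rows, placed over 1738 bases. The most upstream row (mm9 position 152657464, the start of the printed Bcl2l1 window in GRCm38) had 13.9 and 14.2 RPKM in the differentiated lanes, against 4.86 and 5.48 RPKM in the undifferentiated lanes. The second row, placed 616 bases downstream, had 20.5 and 21.3 RPKM in the differentiated lanes, against 5.99 and 5.85 RPKM in the undifferentiated lanes. Bcl2l1-205, which begins at that place, averaged only 2.43 RPKM in the differentiated and 1.07 RPKM in the undifferentiated library. Most of the second row's level came from transcripts that begin farther downstream. The first and second rows took 29.7% and 44.2% of the gene's level in the differentiated library, against 36.0% and 41.1% in the undifferentiated library. The fourth start rested on lane 1 alone, at 4.03 RPKM in the differentiated and 0.652 RPKM in the undifferentiated library, with 0 in lane 2 of both.

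Among the 3 members with several promoters and at least 5 RPKM in both libraries (Bcl2l1, Bcl2l11 and Bbc3), no promoter share differed by 30 percentage points, and the largest differences were 6.25, 5.86 and 2.21 points. Of 4470 such genes, 4.54% had a share that differed by 30 points, and the median of the largest differences was 4.26 points. Bad, at under 5 RPKM in the undifferentiated library, had its largest share difference at an internal start 8912 bases downstream of the first. That start had 2.30 and 1.45 RPKM in the differentiated lanes, against 0.0636 and 0.0248 RPKM in the undifferentiated lanes, which is 16.5% of the gene's level in the differentiated library and 1.12% in the undifferentiated library. The main promoter of Bad, at the 5′ end, stood at 7.06 and 9.07 RPKM in the differentiated lanes, against 3.26 and 3.06 RPKM in the undifferentiated lanes.

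**Figure D3:**
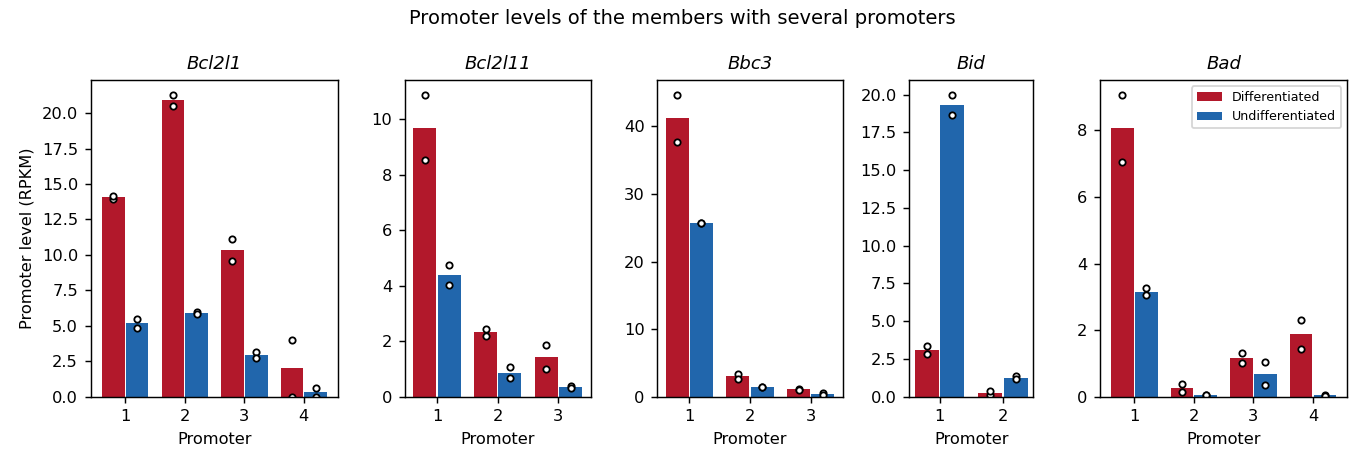
Promoter levels in RPKM (bars, mean of the lanes; points, lanes) of the 5 members with several promoters, numbered from the 5′ end, with differentiated bars left of undifferentiated bars. Promoter 1 of Bid is the one row far lower in the differentiated library (3.12 against 19.3 RPKM), and the fourth Bcl2l1 promoter has a value in lane 1 only.

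Most of the Bid difference lay in 1 transcript. Bid-204, in the GENCODE M21 naming the form that extends farthest at the 3′ end and is annotated there as a target of nonsense-mediated decay, had 1.87 and 1.63 RPKM in the differentiated lanes, against 15.9 and 16.6 RPKM in the undifferentiated lanes. It was the only member transcript counted as lower, and took 52.1% of the gene's level in the differentiated library, against 78.8% in the undifferentiated library. The protein-coding form Bid-201 had 0.170 and 0.388 RPKM in the differentiated lanes, against 1.42 and 1.26 RPKM in the undifferentiated lanes. The shorter coding form Bid-203 had 1.13 and 0.720 RPKM in the differentiated lanes, against 0.750 and 1.64 RPKM in the undifferentiated lanes, so its lanes overlapped. How reads were divided among the forms is not stated.

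The 3′ end of Bid-204, and of no other Bid transcript, overlaps the 3′ end of the convergent gene Bcl2l13 by 913 bases. Bcl2l13, a Bcl2 family protein of the outer mitochondrial membrane, stood at 14.2 and 13.2 RPKM in the differentiated lanes, against 2.87 and 2.72 RPKM in the undifferentiated lanes (log2 ratio 1.95). The neighbours thus differed in opposite directions, and the library does not tell the strand of reads in the overlap. The 4 Bid transcripts that do not reach Bcl2l13 summed to 1.61 and 1.61 RPKM in the differentiated lanes, against 4.13 and 4.58 RPKM in the undifferentiated lanes. Without Bid-204 the Bid RNA was thus still lower in both differentiated lanes, with the log2 ratio of -1.04 given above, a comparison added after the values were seen.

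**Figure D4:**
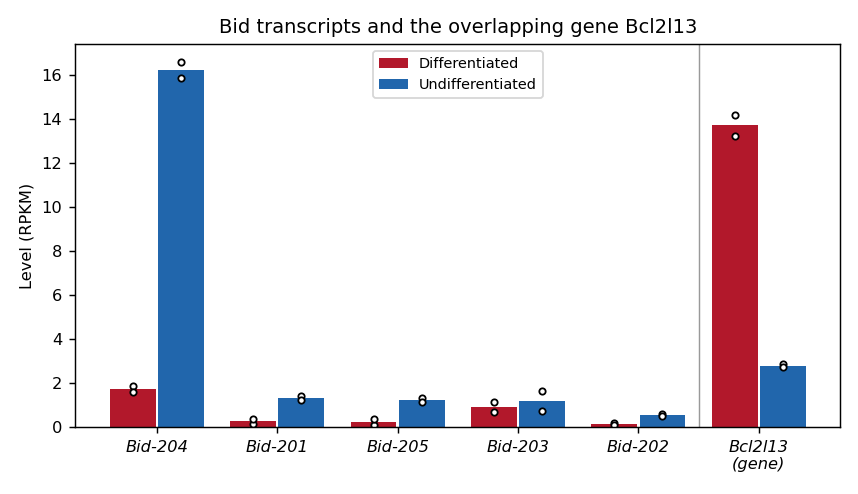
Levels in RPKM of the 5 deposited Bid transcripts and of the gene Bcl2l13 (bars, mean of the lanes; points, lanes), with differentiated bars left of undifferentiated bars. Bid-204 is at 1.75 RPKM in the differentiated and 16.2 RPKM in the undifferentiated library, and Bcl2l13 is at 13.7 RPKM in the differentiated and 2.79 RPKM in the undifferentiated library.

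Of the 42 member transcripts 32 reached 1 RPKM, of which 10 were higher and 1 was lower, beside 20.2% and 9.77% of 34366 transcripts. The transcript values were less stable than the gene values: 12 of the 42 stood at 0 in a single lane of a library. Among the Bcl2l11 forms, Bcl2l11-203 had 0.529 and 3.16 RPKM and Bcl2l11-204 had 3.45 and 0 RPKM in the differentiated lanes, so each was high in the lane where the other was low. In the undifferentiated lanes Bcl2l11-203 had 0 in both and Bcl2l11-204 had 0.831 and 0.800 RPKM. The main long form, Bcl2l11-205, had 3.73 and 4.22 RPKM in the differentiated lanes, against 1.99 and 1.80 RPKM in the undifferentiated lanes. No member with 5 RPKM in both libraries had a transcript share that differed by 30 points, beside 5.31% of 6061 genes. The largest differences were 21.8 points in Bcl2l11 and 18.9 points in Bak1, and that of Bak1 was 0.489 points in lane 1 and 36.9 points in lane 2.

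The Bcl2 family genes outside the 10 members were mostly weak. Of 15 further genes 9 reached the floor, and among these Bcl2l13 alone was past 2-fold as reported. With a pseudocount of 0.1 the list had 3 higher and 1 lower, and in lane 1 or with equal RPKM sums it had 2 higher. The median log2 ratio was 0.56 at the floor and -0.15 with no floor, so the list has no common direction. Bcl2l2, which encodes the anti-death protein Bcl-w, averaged 1.09 RPKM in the differentiated library, against 0.0995 RPKM in the undifferentiated library (log2 ratio 0.93, with 1.18 in lane 1 and 0.54 in lane 2). Hrk, a BH3-only gene best known in neurons, averaged 1.02 RPKM in the differentiated library, against 0.17 RPKM in the undifferentiated library (0.79). The anti-death genes Bcl2a1a, Bcl2a1b and Bcl2a1d, paralogs among which the assignment of reads is uncertain, were listed at 0 in both differentiated lanes and stayed at or below 0.211 RPKM in the undifferentiated lanes. Bok, a relative of Bax, averaged 11.9 RPKM in the differentiated library, against 14.5 RPKM in the undifferentiated library.

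The machinery downstream of mitochondria was largely within 2-fold. Among its 15 genes 2 (Apaf1 and Casp6) were past 2-fold on the higher side and 0 on the lower side, beside 19.1% and 8.48% of all genes at the floor, and the list median was 0.20 on the log2 scale. Apaf1, the scaffold on which cytochrome c activates caspase-9, stood at 28.8 and 30.4 RPKM in the differentiated lanes, against 8.35 and 7.45 RPKM in the undifferentiated lanes (log2 ratio 1.78). Casp6, an executioner caspase, stood at 15.2 and 15.3 RPKM in the differentiated lanes, against 5.39 and 7.73 RPKM in the undifferentiated lanes, and its log2 ratio of 1.10 was 0.90 in lane 2 and fell short of 2-fold after every scaling except equal RPKM sums. Htra2, a mitochondrial protease, averaged 12.5 RPKM in the differentiated library, against 6.41 RPKM in the undifferentiated library (0.87). The value of Vdac2, a mitochondrial channel that binds Bak, rested on the lane, with log2 ratios of -2.05 and 1.67 in the separate lanes. The 5 inhibitors of apoptosis had a median of 0.33, and 1 of them was past 2-fold. It was Xiap, a direct caspase inhibitor, at 4.20 and 13.5 RPKM in the differentiated lanes, against 3.20 and 2.91 RPKM in the undifferentiated lanes, so the difference rested on lane 2 (log2 ratio 0.31 in lane 1). Birc6 and Birc2, other members of that inhibitor family, had log2 ratios of 0.64 and 0.33. Vdac2 and Bok were named after their values were seen.

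The death receptor genes, which feed the pathway that Bid joins to mitochondria, had the highest share of higher genes of the 5 lists. Of 10 genes 8 reached the floor, of which 4 were higher and none was lower (19.1% and 8.48% of all genes), and their median on the log2 scale was 1.23 (0.84 with no floor). Fas and Casp8, among the higher genes, reached the floor only through their differentiated levels, so the count and median at the floor partly rest on that choice. A floor of 5 RPKM left only Tnfrsf10b, Tnfrsf1a, Cflar and Fadd, of which 2 were higher (Tnfrsf10b and Tnfrsf1a), and the median was again 1.23. Tnfrsf1a, a receptor for tumour necrosis factor, stood at 10.7 and 11.4 RPKM in the differentiated lanes, against 2.32 and 2.44 RPKM in the undifferentiated lanes (log2 ratio 1.83). Casp8, the caspase that cuts Bid, stood at 4.94 and 4.48 RPKM in the differentiated lanes, against 0.746 and 0.661 RPKM in the undifferentiated lanes (1.74). Casp8 was thus higher and its substrate gene Bid lower in both differentiated lanes. Fas, another death receptor, stood at 5.22 and 3.72 RPKM in the differentiated lanes, against 0.102 and 0.996 RPKM in the undifferentiated lanes (1.82). Tnfrsf10b, the mouse receptor for the ligand Trail, averaged 35.7 RPKM in the differentiated library, against 11.0 RPKM in the undifferentiated library (1.62). Over these lists and the regulators of the members together, 56 genes reached the floor, and 12 of them were past 2-fold on the higher and 1 on the lower side. The share on the higher side is near the 19.1% of all genes at the floor, so the count is no result about these lists.

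**Figure D5:**
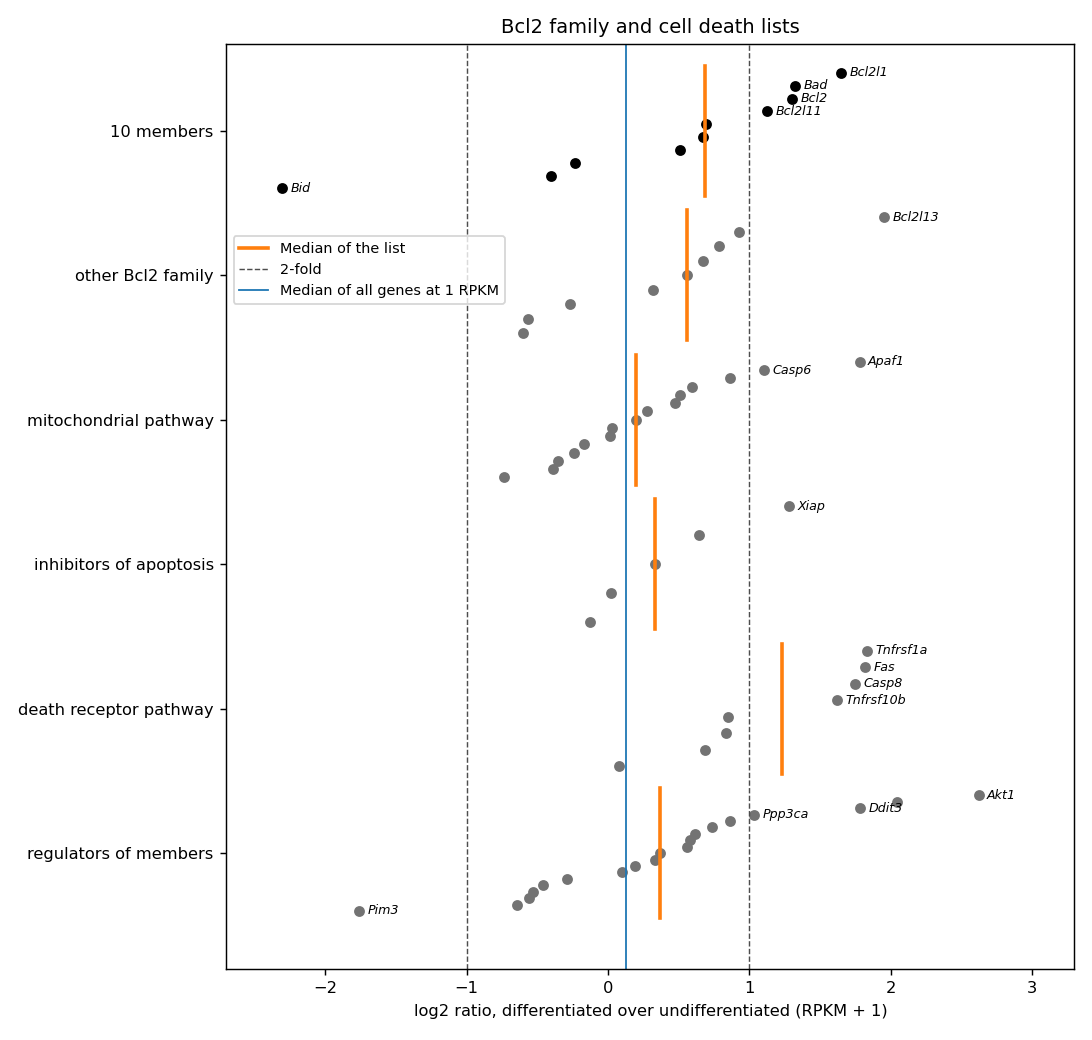
Log2 ratios of differentiated over undifferentiated RPKM + 1 for the 10 members and for the genes at the floor of 5 cell death lists, each point a gene, with names for points past 2-fold (dashed lines) that the text describes. Bid (-2.31) and Pim3 (-1.76) are the genes past the lower line, and the death receptor list has the highest median (1.23).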

How the data were processed

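RNA was sequenced from 1 differentiated and 1 undifferentiated library (36 bp single-end reads, 2 lanes each), per the labels' protocols. The preparation they name is not a strand-specific one. The authors deposited 3 tables of lane values and lane means. The genome build was mm9, per the submitters' processing notes, and no aligner, counting program or annotation release is named in the sources used here. The headers name no unit. The deposited values were read as RPKM from low values in 7925 single-exon genes (3576 to 3613 values per lane). Value times length times lane depth fell on whole reads, within 5% of a read, for 81.7% to 82.3% of them. The depth of each lane was the one that made this share largest, so the share is a fitted optimum. A gene's value is the sum over its transcripts, so a gene with several forms carries their summed RPKM. The deposited end minus start equals the GENCODE M21 span in 39360 of 58421 transcripts, and the span less 1 in 360, so deposited starts were taken to count from 0 and were raised by 1 for printing.

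Computed here (Python 3.11.15, pandas 2.3.3) were lane SDs, log2 ratios with a pseudocount of 1, calls at 2-fold with a floor of 1 RPKM in either library, sums by role and shares. Of rows with the same symbol (488) the highest was used, which touched no member. All 10 members were named; of each list, the 3 genes with the largest ratios and any past 2-fold, except that some genes of the lists are counted but not reported here by name. Members and lists were chosen with earlier results of these data known. Alternatives were another pseudocount, 4 scalings, single lanes, no floor, a floor of 5 RPKM and, chosen after seeing the data, Bid without its overlapping transcript. No column of lane values was without a sample. No p-value is given.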

Additional observations from a re-analysis of the deposited data

How the results depend on the processing

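With 1 library per group, no setting tests the cultures, and no paired analysis was possible because each group has a single library. The count of higher members was 4 as reported and 3 in lane 1, after trimmed-mean scaling and at a floor of 5 RPKM, and the count of lower members was 1 throughout. The scalings moved the differentiated values by -0.12 (median), -0.17 (trimmed mean), -0.13 (upper quartile) and 0.25 (equal RPKM sums) on the log2 scale. In that order of scalings, the members' median log2 ratio was 0.57, 0.52, 0.56 and 0.92, that of the anti-death sum -0.18, -0.22, -0.18 and 0.19, that of the effector sum -0.25, -0.29, -0.25 and 0.12, that of the BH3-only sum 0.29, 0.24, 0.28 and 0.66, and the median over the cell death lists 0.31, 0.27, 0.30 and 0.72. That last median was 0.41 in lane 1, 0.33 with no floor and 0.33 at a floor of 5 RPKM, beside 0.49 as reported. The number of lower genes in these lists was 2 with a pseudocount of 0.1 and 2 in lane 1, beside 1 as reported. In lane 2 alone 1 member, Bak1, had a transcript share that differed by 30 points, beside 0 as reported. The Bid log2 ratio was -1.04 without the transcript that overlaps Bcl2l13, beside -2.31 as reported. The causes of these shifts were not tested. The higher count of the mitochondrial list was 1 after the median, trimmed-mean and upper-quartile scalings, beside 2 as reported. About 9 reads per undifferentiated lane lie behind the long Bcl2 transcript, which limits the precision of its level.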

Other observations

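Genes that act on the members were also listed. Among 19 regulators 4 were past 2-fold on the higher side and 1 on the lower side, near the 19.1% and 8.48% of all genes at the floor, and the list median was 0.37 on the log2 scale. Akt1, a survival kinase that phosphorylates Bad, stood at 92.9 and 92.1 RPKM in the differentiated lanes, against 14.5 and 13.9 RPKM in the undifferentiated lanes (log2 ratio 2.62). Pim3, another kinase that can phosphorylate Bad, was the lower gene, at 27.5 and 32.1 RPKM in the differentiated lanes, against 103 and 103 RPKM in the undifferentiated lanes (-1.76). The lanes of the libraries did not overlap for either kinase gene.

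Ddit3, which encodes the stress factor Chop, an activator of Bcl2l11 transcription, stood at 33.1 and 27.4 RPKM in the differentiated lanes, against 6.65 and 9.50 RPKM in the undifferentiated lanes (1.78). Ppp3ca, a calcineurin subunit that can dephosphorylate Bad, had a log2 ratio of 1.03 that was 0.73 in lane 1 and short of 2-fold after every scaling except equal RPKM sums. Foxo3, a forkhead activator of Bcl2l11 and Bbc3, averaged 8.00 RPKM in the differentiated library, against 4.40 RPKM in the undifferentiated library (0.74), and was named after its values were seen. Protein activity, which phosphorylation sets for these regulators, was not measured.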
